A study of Homo sapiens with 6 samples.

Results

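The RNA of HEK293T cells expressing GFP-DDX3X T275M was compared with that of cells expressing GFP alone, gene by gene. HEK293T is a human embryonic kidney line that carries the SV40 large T antigen, a viral protein known to bind p53. The series holds 6 libraries of this line, 1 per group. In the plasmid arm, 5 µg of plasmid was transfected, encoding either GFP alone or GFP-DDX3X as the wild type, the T275M mutant or the G302V mutant, and cells positive for GFP were collected after 32 h with a cell sorter. In the siRNA arm, cells were given a control or a DDX3X siRNA for 48 h, and no sorting was described. All plasmid groups kept the endogenous DDX3X gene, so the T275M cells held both the mutant and the endogenous product. The T275M construct was expressed transiently, and its library is identified here by its sample label, since a figure legend in the study names G302V with a different second mutant for the RNA-seq. Of 23204 gene symbols, 12503 reached 1 RPKM (reads per 1000000 library reads and per kilobase of transcript) in the T275M or the GFP library on a row of 200 bases or longer, and these were compared.

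DDX3X is a DEAD-box RNA helicase, an enzyme that uses ATP to unwind RNA and that acts in the initiation of translation. Missense mutations in its helicase core are found in medulloblastoma, a tumour of the cerebellum in children. The threonine that is changed in T275M lies in motif Ia, a conserved block of the DEAD-box core that contacts RNA. The reference codon of this residue was read from the GRCh37 genome to show where the mutant differs from the wild type. It occupies chromosome X, positions 41203340 to 41203342 on the plus strand, in coding exon 9 of the 17 exons of the canonical transcript, whose coding sequence has 1986 bases for 662 residues. The exon is given 5′ to 3′ with the codon in capitals. The DNA change in the plasmid is not stated in the sources used here.
DDX3X chrX:41203283-41203381: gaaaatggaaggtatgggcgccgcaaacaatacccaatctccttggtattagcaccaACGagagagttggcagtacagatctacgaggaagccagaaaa

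The targeted gene was examined first. DDX3X (chromosome X, positions 41192601 to 41223725, GRCh37) had a level of 119 RPKM in the GFP library, 3279 in T275M, 2894 in wild type, 1906 in G302V, 107 in control siRNA and 31.3 in DDX3X siRNA. The T275M library was thus the highest of the 6 in DDX3X RNA, and all 3 libraries of a DDX3X plasmid lay far above the other 3. The difference of log2(RPKM + 1) from GFP was 4.78, with a 95% counting interval of 4.76 to 4.79, and 840787 of the 47550000 reads of the T275M library (1.77%) fell on DDX3X. Reads of the plasmid and of the endogenous gene are not separated in these values, and the row of 5393 bases by which RPKM divides is longer than the coding sequence. The Y-linked paralog DDX3Y, whose sequence is close enough to share reads with DDX3X, was under 1 RPKM in every library and was not compared.

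All differences below are of log2(RPKM + 1) between 1 library and another, so a value of 1 is a 2-fold difference on that scale and understates the change of genes at low level. The intervals are exact Clopper-Pearson 95% intervals from the recovered reads and cover counting error only. No difference has a replicate check, and no test between conditions is possible with 1 library per group. Recovered depth was 54850000 reads for GFP and 47550000 for T275M, within the range of 43720000 to 180870000 over the 6 libraries, and 12444 to 12902 genes were at 1 RPKM or more, depending on the library. The sample labels give the cell type as Neuronal. Of 16 neuronal markers, 6 to 8 reached 1 RPKM in a library. The neurofilament gene NEFM was the highest of them (514 to 683 RPKM), whereas the defining neuronal genes ELAVL4, DCX and STMN2 were at 0 RPKM in both libraries compared. Of 8 blood cell markers none reached 1 RPKM in any library, and 8 of 11 epithelial and kidney progenitor markers did in both libraries compared.

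Genes past 2-fold were nearly all higher with T275M. At this threshold 31 genes were higher (0.248% of those compared) and 1 was lower (0.008%). At a 1.5-fold threshold, 271 genes were higher (2.17%) and 5 were lower (0.04%). With rows of every length the counts at 2-fold were 43 higher and 13 lower, and with a pseudocount of 0.1 or 10 they were 119 and 3 or 2 and 0. The higher genes included the stress cytokine GDF15, the smooth muscle actin ACTA2, the cytokine LIF and a group of p53 target genes led by CDKN1A and GADD45A. GDF15, LIF, INHBE, SH2D3C, FSBP, SPATA18, PVRL4 and INPP5D were under 1 RPKM with GFP and passed the filter only through T275M. Over all genes the median difference was 0.07, and 95% of genes lay between -0.31 and 0.56. The genes nearest to the threshold were ARHGEF40 at 1.01 on the inside and SNAP25 and DUSP8, both at 0.99, on the outside. The plot of every gene against its level shows the same asymmetry.

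**Figure D1:**
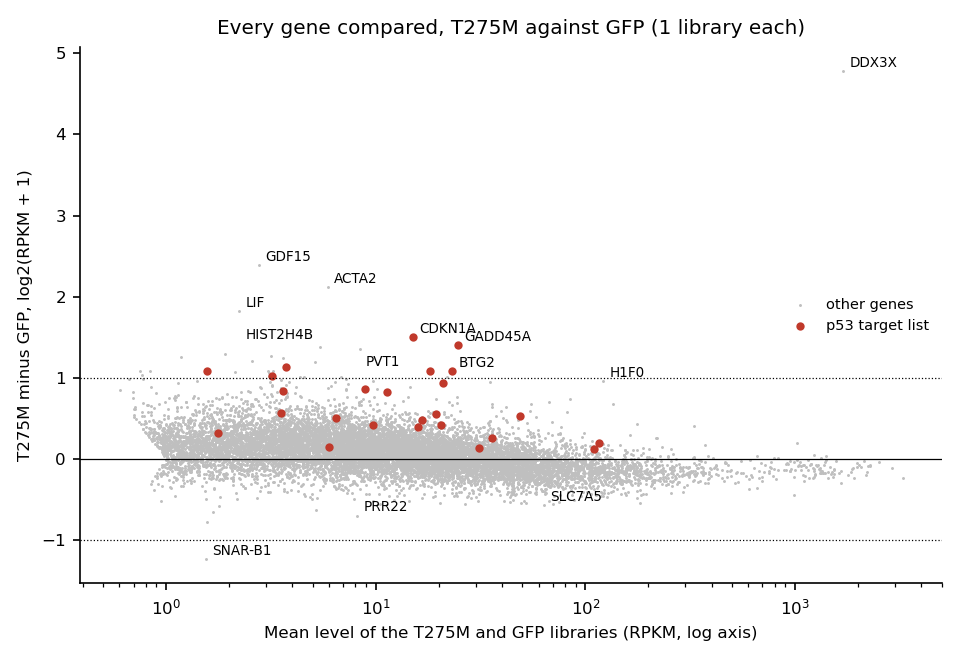
Each point is 1 of 12503 genes, with the mean of its T275M and GFP levels in RPKM on a log axis and the difference of log2(RPKM + 1), T275M minus GFP, on the vertical axis; p53 target genes are in red and dotted lines mark 2-fold. DDX3X stands at 4.78, all 25 p53 target genes lie above 0, and SNAR-B1 is the single gene below the lower line.

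Secreted signals were among the largest differences after DDX3X. GDF15, a TGF-beta family cytokine known to be induced by cell stress (chromosome 19, 18485541 to 18499986), was at 0.213 RPKM with GFP, 3.44 with wild type, 5.35 with T275M, 1.45 with G302V, 0.296 with control siRNA and 0.332 with DDX3X siRNA. Its difference was 2.39 (2.19 to 2.53), from 305 reads against 14. LIF, a cytokine of the interleukin-6 family (chromosome 22, 30636442 to 30642748), was at 0.427 RPKM with GFP, 3.18 with wild type, 4.05 with T275M, 1.34 with G302V, 0.351 with control siRNA and 0.370 with DDX3X siRNA, a difference of 1.82 (1.71 to 1.93). In both genes the order was T275M, wild type, G302V and then the 3 libraries with no DDX3X plasmid, which lay close together. INHBE, an inhibin beta subunit, was at 0.284 RPKM with GFP and 2.07 with T275M (1.26, interval 1.1 to 1.39), and unlike the first 2 it was at only 0.206 RPKM with G302V. CD70, a membrane ligand of the TNF family, was at 1.70 RPKM with GFP and 4.74 with T275M (1.09, interval 0.83 to 1.34).

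ACTA2, which encodes the alpha actin of smooth muscle, was at 1.59 RPKM with GFP, 7.10 with wild type, 10.2 with T275M, 4.55 with G302V, 1.60 with control siRNA and 2.43 with DDX3X siRNA. Its difference was 2.12 (1.93 to 2.30), and both of its rows gave over 2. T275M exceeded wild type by 0.47 (0.33 to 0.61). The other markers of fibroblasts and smooth muscle did not share this size of difference. Of the 12 on that list 4 were compared, and SMTN was at 0.12, COL1A1 at 0.11 and COL3A1 at 0.46, while COL1A2 was at 0 RPKM with T275M. The summed level of the 12 markers was 18.9 RPKM with GFP and 30.1 with T275M, and ACTA2 made up most of the gain. Of the 22 target genes of SRF and YAP that were compared, which include much of the actin cytoskeleton, 15 were higher and 7 lower, with a median of 0.10. ACTA2 was the only member past 2-fold, the next was AJUBA at 0.72, and ACTB was at -0.24.

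The p53 target genes, a list chosen with earlier results of these data known, were higher with T275M as a group. p53 is a transcription factor that responds to DNA damage and other stress by activating genes of cell-cycle arrest, DNA repair and apoptosis. All 25 compared members were higher, with a median of 0.55, against 63.2% of all genes and a median of 0.07. Of the 25, 7 were past 2-fold (0.248% of all genes) and 11 past 1.5-fold (2.17% of all genes). The counting interval lay above 0 for 24, against 5673 of all 12503 genes compared. TP53I3 was the exception at 0.14 (-0.06 to 0.35). The median level of the list was 15.9 RPKM, and genes between 5 and 20 RPKM had a median difference of 0.12. BTG2 is also on the immediate-early list and SESN2 on the ATF4 list.

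The largest differences of the list were those of CDKN1A and GADD45A. CDKN1A, which encodes the cyclin-dependent kinase inhibitor p21 (chromosome 6, 36644237 to 36655114), was at 7.38 RPKM with GFP, 16.3 with wild type, 22.7 with T275M, 21.1 with G302V, 5.54 with control siRNA and 6.88 with DDX3X siRNA. Its difference was 1.5 (1.40 to 1.60), from 2328 reads against 874, and its 4 rows ranged from 1.48 to 1.5. GADD45A, a growth arrest gene (chromosome 1, 68150884 to 68154017), was at 13.1 RPKM with GFP, 32.1 with wild type, 36.4 with T275M, 23.5 with G302V, 9.92 with control siRNA and 10.1 with DDX3X siRNA, a difference of 1.41 (1.31 to 1.51). In both genes each of the 3 DDX3X plasmid libraries, 1 per construct, was above the other 3. How many of all genes have this order was not counted. BTG2, an antiproliferative gene, was at 14.5 RPKM with GFP, 23.3 with wild type, 31.8 with T275M, 20.8 with G302V, 13.7 with control siRNA and 17.9 with DDX3X siRNA (1.09, interval 1.01 to 1.16). PHLDA3, which restrains AKT signalling, was at 11.3 RPKM with GFP and 25.1 with T275M (1.09, interval 0.98 to 1.20).

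Members with roles in apoptosis and DNA repair are given next. The death receptor FAS was at 1.97 RPKM with GFP, 4.70 with wild type, 5.51 with T275M, 3.33 with G302V, 2.54 with control siRNA and 2.88 with DDX3X siRNA (1.13, interval 0.99 to 1.28), and its 7 rows ranged from 1.08 to 1.13. BBC3, a BH3-only protein also called PUMA, was at 0.82, whereas BAX, an effector of mitochondrial apoptosis, was at 0.19, from 109 to 124 RPKM. The TRAIL receptors TNFRSF10A and TNFRSF10B were at 0.32 and 0.26. Among repair genes, DDB2 was at 0.94 (14.0 RPKM with GFP and 27.8 with T275M), XPC at 0.42 and RRM2B at 0.42. SPATA18, which acts in mitochondrial quality control, was at 1.08. The stress protein TP53INP1 was at 1.03, from 1.77 RPKM with GFP to 4.64 with T275M, and was highest with G302V (5.50 RPKM). The feedback regulators of p53 were also higher, PPM1D at 0.87 and MDM2 at 0.48, and the smallest difference of the list was that of CCNG1 at 0.13.

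The same list was set beside the other constructs and the controls. Its median was 0.35 for wild type and 0.40 for G302V against GFP, comparisons that share the GFP library with that of T275M. Between the controls, GFP against control siRNA, the median of the list was 0.07, with members on both sides of 0. CDKN1A was at 0.36 (0.24 to 0.48), GADD45A at 0.37 (0.25 to 0.49) and SESN2 at 0.31 (0.26 to 0.36). FAS was at -0.26 (-0.40 to -0.11). The GFP and control siRNA libraries are from different arms of the series. Compared directly with wild type, without the GFP library, T275M was higher in 23 of the 25 genes, with a median of 0.18 where all compared genes had 0.01, and the counting interval lay above 0 for 21. Over all genes 6525 of the 12503 were higher than in wild type, and the counting interval lay above 0 for 3089. BTG2 exceeded wild type by 0.43, TP53INP1 by 0.46 and CDKN1A by 0.46, whereas SESN2 was below it at -0.17. The level of DDX3X RNA itself was also higher with T275M than with wild type, by 0.18 (0.18 to 0.18), and its part in these differences was not tested.

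**Figure D2:**
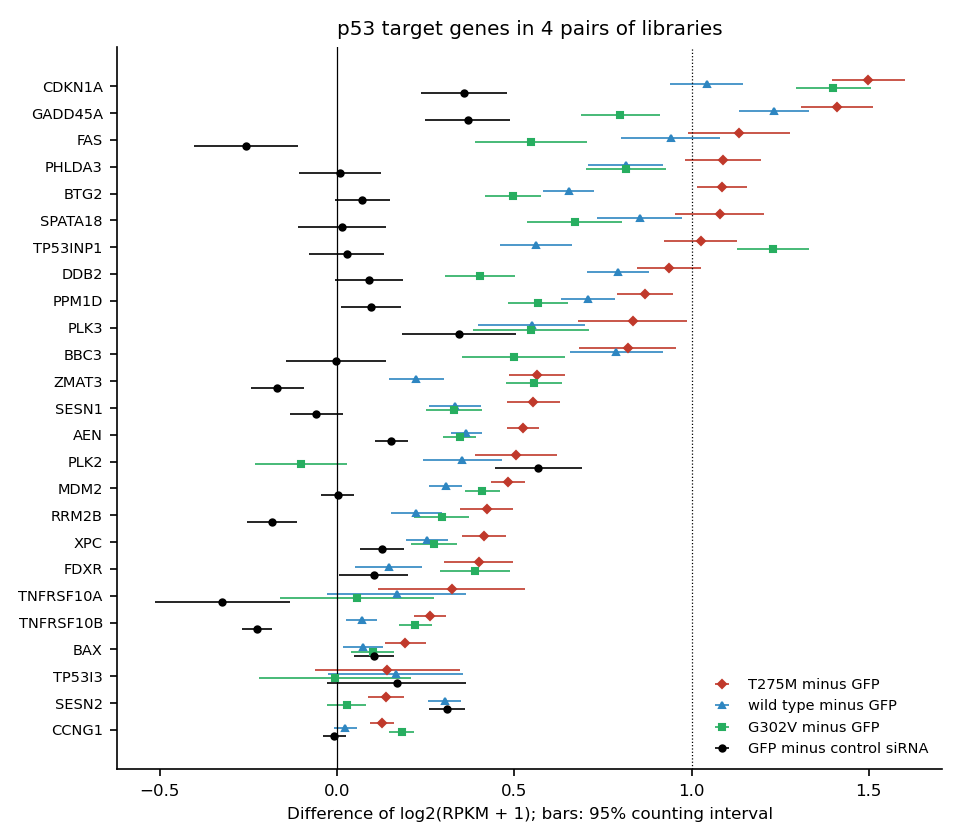
The 25 p53 target genes are plotted by their difference of log2(RPKM + 1) in 4 pairs of libraries, with bars for 95% counting intervals. The T275M points run from 0.13 for CCNG1 to 1.5 for CDKN1A and all lie above 0, while those of GFP against control siRNA lie on both sides of 0.

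Promoter sequences were read for the p53 list because p53 binds DNA through a decamer motif, usually present as a pair. Windows from 250 bases before to 50 after the first transcribed base came from RefSeq (GRCh38.p14) and matched 19 of the 25 genes. The decamer, whose consensus is palindromic so that both strands are covered by 1 search, occurred in 6 of these 19 and in 8.06% of all 27305 symbols with a window. A pair of decamers with at most 13 bases between them occurred in 1, DDB2, and in 0.0366% of all symbols. The 6 genes with a decamer were FAS, SESN1, PLK2, FDXR, DDB2 and AEN. CDKN1A and GADD45A, which had the largest differences of the list, were not among them. The list is of genes known as p53 targets, so these shares describe the list and not these libraries. The stretches around 4 of the matches are given on the strand of the gene, with the decamers in capitals. They are for genes with the larger differences among the 6 and for the site shared by FAS and ACTA2. A match is a description of these letters and not a measured site.
DDB2 chr11:47214975-47215003: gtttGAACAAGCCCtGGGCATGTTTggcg
FAS chr10:88991299-88991328: cggaactcctGGACAAGCCCtgacaagcca
SESN1 chr6:109009018-109009047: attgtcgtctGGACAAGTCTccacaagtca
AEN chr15:88621296-88621325: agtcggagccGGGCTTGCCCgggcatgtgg

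The DDB2 pair starts 6 bases into the transcribed part of the window, and the decamers of FAS, SESN1 and AEN start 122, 49 and 34 bases upstream of the first transcribed base. FAS and ACTA2 are neighbours on opposite strands of chromosome 10, and the decamer of FAS is also found in the window of ACTA2, where it starts at transcribed base 20. Another decamer in the ACTA2 window starts 219 bases upstream of its first transcribed base. FAS and ACTA2 were at 1.13 and 2.12 in the comparison. In the GRCh37 annotation, 380 of the 5628 exon bases of ACTA2 overlap exons of FAS. The library kit does not mark strand, so reads from the overlap cannot be assigned to 1 of them. How much of the overlap lies in the rows used, of 1399 bases for ACTA2 and 2689 for FAS, was not tested.

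The remaining genes past 2-fold were grouped by role after their values had been seen. PVT1, a long noncoding RNA, was at 4.30 RPKM with GFP, 9.22 with wild type, 12.5 with T275M, 6.87 with G302V, 3.70 with control siRNA and 4.21 with DDX3X siRNA (1.35, interval 1.21 to 1.48). The zinc finger genes ZNF79, ZNF467 and ZNF627 were at 1.20, 1.08 and 1.06, and RFX3, a transcription factor of ciliated cells, was at 1.07. CLK1, a kinase that phosphorylates SR splicing factors, was at 14.2 RPKM with GFP, 30.9 with wild type, 29.7 with T275M, 14.9 with G302V, 20.1 with control siRNA and 18.2 with DDX3X siRNA (1.01, interval 0.93 to 1.1). G302V lay beside GFP in this gene, and control siRNA lay above both. PHF21B, at 1.20, was highest with G302V (5.01 RPKM) and not with T275M (4.0 RPKM).

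The adaptor SH2D3C was at 1.29, the phosphatase INPP5D at 1.04, the kinase BRSK1 at 1.01, the guanine nucleotide exchange factor ARHGEF40 at 1.01 and the nectin PVRL4 at 1.08. DHRS2, a dehydrogenase, was at 1.25 and was lower with T275M (5.48 RPKM) than with wild type (7.92 RPKM). CRIP2, OVGP1 and the noncoding LOC647946 were at 1.01, 1.02 and 1.27. FSBP, at 1.09, rested on 30 reads against 3 on a row of 458 bases and shares 3511 of its 7413 exon bases with RAD54B, so its value is uncertain. Outside the p53 list, PHF21B was the only one of these genes with its highest level among the 6 libraries in G302V. The plot of levels places the 32 genes past 2-fold side by side in the 6 libraries.

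**Figure D3:**
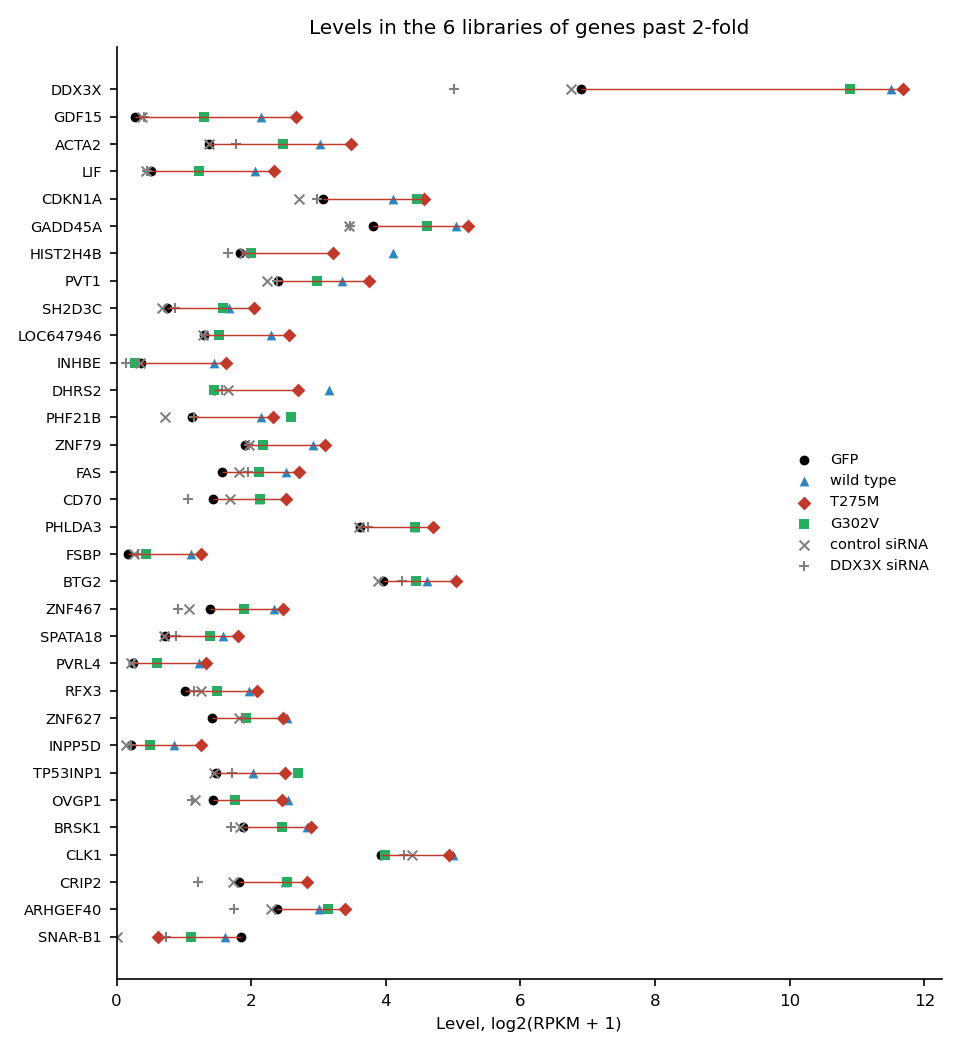
Levels of the 32 genes past 2-fold are plotted as log2(RPKM + 1) in each of the 6 libraries, ordered by the T275M difference, with a red line from GFP to T275M. In most rows wild type lies near T275M, as for LIF at 3.18 and 4.05 RPKM, and the siRNA libraries lie near GFP.

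Lower genes were few, and their differences were small. SNAR-B1, a small noncoding RNA of a family of near-identical copies, was the gene past 2-fold, at 2.58 RPKM with GFP and 0.526 with T275M (-1.23, interval -1.69 to -0.62, 6 reads against 34), and it was at 0 RPKM with control siRNA. Its copies cannot be told apart in these values. The other 4 genes past 1.5-fold were FOSB (-0.77), PRR22 (-0.70), UQCRBP1 (-0.65) and RPL23P8 (-0.62), of which the last 2 are pseudogenes whose reads can belong to their parent genes. Among genes of 5 RPKM or more the next were SLC7A5, GAPDHS, CCDC85B, CCDC86, MRPS12, UBE2S, ZNF593 and LOC100130417, between -0.56 and -0.54. SLC7A5, a transporter of large neutral amino acids, was at 75.7 RPKM with GFP, 60.1 with wild type, 51.0 with T275M, 62.4 with G302V, 95.6 with control siRNA and 98.7 with DDX3X siRNA, so T275M was the lowest library and the 4 plasmid libraries lay below the siRNA libraries. UBE2S, a ubiquitin-conjugating enzyme of mitosis, was at 217 RPKM with GFP and 149 with T275M.

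Genes of protein synthesis and of mitochondria were slightly lower with T275M across whole lists, and they are also highly expressed. Of 32 small-subunit ribosomal protein genes 30 were lower (median -0.09), and of 47 large-subunit genes 44 were lower (median -0.12). RPS26 was the lowest of the former at -0.33 and RPL41 of the latter at -0.30, while RPS15A was at 0.05. Translation initiation factors had a median of -0.11, with 31 of 40 lower, among them EIF4EBP1 at -0.42 and EIF4G1 at -0.31, while EIF5 (0.32) and the helicase EIF4A2 (0.30) were higher. Cytosolic aminoacyl-tRNA synthetases had 14 of 20 lower (median -0.12). Subunits of respiratory complex I had 36 of 38 lower (median -0.15), with NDUFS6 at -0.44. The 2 lists taken by symbol after the values had been seen gave 72 of 76 mitochondrial ribosomal protein genes lower (median -0.17) and 32 of 36 ribosome biogenesis factors lower (median -0.18). No member of any of these lists passed 1.5-fold.

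The difference moved with level, length and base composition over all genes, and this is given beside the lists. The median was 0.17 under 2 RPKM and -0.15 at 100 RPKM or more, where 11.4% of 788 genes were higher. It was -0.09 for rows of 200 to 1000 bases and 0.14 for rows of 4000 bases or longer, and 0.17 for rows under 40% GC against -0.01 at 60% GC or more. Ribosomal protein genes, with a median level of 1229 RPKM for the small and 1274 RPKM for the large subunit, lay near the median of their level class. The C2H2 zinc finger genes named ZNF, also taken after their values were seen, had 334 of 382 higher and a median of 0.25, with 34 past 1.5-fold (8.90%, against 2.17% of all genes), at a median level of 3.70 RPKM. When the trend with level was removed, about the median of all genes at 0.07, the medians of the lists of protein synthesis and mitochondria no longer lay below 0 except for mitochondrial ribosomal proteins (-0.03) and ribosome biogenesis factors (-0.05). They became 0.13 for the small and 0.10 for the large ribosomal subunit, 0.08 for initiation factors, 0.07 for tRNA synthetases and 0.05 for complex I. The zinc finger genes were then at 0.16 and the p53 target genes at 0.58.

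**Figure D4:**
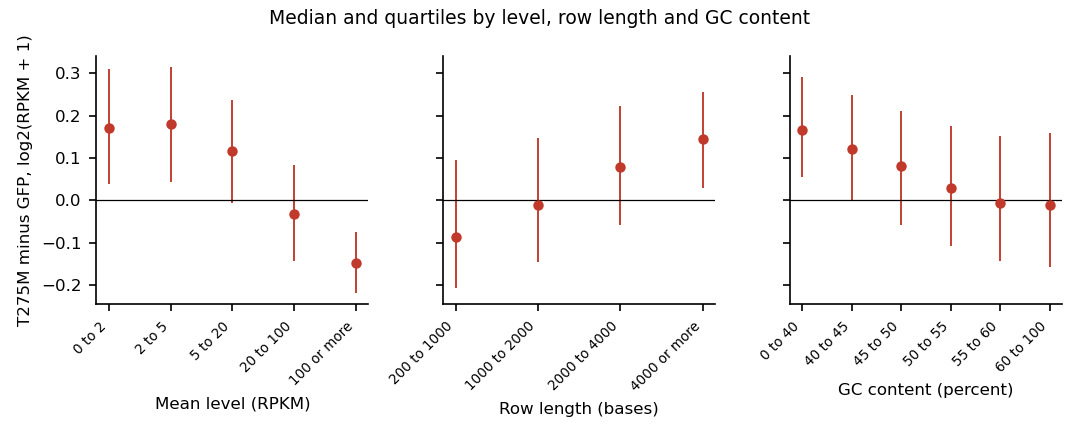
Points are medians and bars quartiles of the difference of log2(RPKM + 1), T275M minus GFP, for genes grouped by mean level in RPKM, row length in bases and GC content in percent. The median passes from 0.17 in the lowest to -0.15 in the highest level class and runs the opposite way with row length, from -0.09 to 0.14.

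Immediate-early genes, which respond to signals within minutes, diverged from each other. Of 27 compared, 20 were higher and 7 lower, with a median of 0.31, and 9 were past 1.5-fold higher (33.3%, against 2.17% of all genes). The median was 0.17 with no filter on level and 0.11 with a pseudocount of 10. ATF3, a stress-response transcription factor, was at 23.8 RPKM with GFP, 39.6 with wild type, 46.7 with T275M, 38.1 with G302V, 20.4 with control siRNA and 21.4 with DDX3X siRNA (0.94, interval 0.87 to 1.01). KLF6 was at 0.86, JUN at 0.68 and DUSP1 at 0.64. Other members were lower. FOSB was at -0.77, DUSP2 at -0.46, FOS at -0.31 and EGR1 at -0.27. EGR1 was at 58.9 RPKM with GFP, 55.2 with wild type, 48.6 with T275M, 23.6 with G302V, 0.557 with control siRNA and 0.451 with DDX3X siRNA, so this gene separated the arms of the series far more than it separated T275M from GFP.

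Other stress programmes had medians of at most 0.08, with members on both sides of 0. Target genes of ATF4 and the integrated stress response, the programme that follows phosphorylation of eIF2α, had 16 higher and 15 lower of 31 and a median of 0.01. Within it the phosphatase subunit PPP1R15A (0.72), DDIT4 (0.68), DDIT3 (0.46) and NUPR1 (0.75) were higher, whereas CHAC1 (-0.43), SLC7A5 and ATF4 itself (-0.23) were lower. ATF4 RNA was at 487 RPKM with GFP, 480 with wild type, 415 with T275M, 380 with G302V, 453 with control siRNA and 270 with DDX3X siRNA. The unfolded protein response of the endoplasmic reticulum had a median of -0.03 (10 of 23 higher), heat shock factor targets -0.10 (6 of 22 higher) and NRF2 antioxidant genes -0.14 (5 of 20 higher). HMOX1, a heme oxygenase, was the highest among the last, at 0.51, and its level was higher with G302V (27.3 RPKM) than with T275M (17.0 RPKM). Interferon and nucleic acid sensing genes had 13 of 19 higher with a median of 0.08.

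Lists tied to the known roles of DDX3X had medians between -0.10 and 0.14. The proteins of stress granules, cytoplasmic assemblies of stalled mRNA, had 19 of 33 higher and a median of 0.01, with G3BP1 at -0.24 and ATXN2 at 0.40. Wnt pathway genes, which DDX3X is known to affect through casein kinase 1, had 32 of 38 higher (84.2%) and a median of 0.14. The share higher was 63.2% over all genes and 73.9% among those between 5 and 20 RPKM, whose median was 0.12. The Wnt list had a median level of 8.62 RPKM, and its median difference was 0.08 with the length fit. FZD6, a Wnt receptor, was at 0.59 and AXIN1, a scaffold of the beta-catenin destruction complex, was at 0.51, while the Wnt target gene MYC was at -0.22 and CTNNB1, which encodes beta-catenin, was at 0.05. Other DEAD-box and DEAH-box helicases had 36 of 48 lower and a median of -0.10, from DHX37 at -0.38 to EIF4A2. Splicing factors of the hnRNP and SR families had 24 of 32 lower (median -0.08), whereas the 4 CLK kinases that phosphorylate SR proteins, taken after their values were seen, were all higher (median 0.63). Of the mRNAs that the study names as bound by DDX3X, only some were taken as a list. All 7 of these were lower, between -0.17 for PTMA and -0.03. Their median difference was -0.08 and their median level 717 RPKM. Among all 788 genes at 100 RPKM or more, the median was -0.15 and 11.4% were higher.

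Genes of proliferation showed small differences. DNA replication and E2F target genes had 33 of 47 lower and a median of -0.08, with GINS2 at -0.33. Genes of mitosis and G2 had 20 of 38 higher and a median of 0.02, from FAM64A at -0.28 to HMMR at 0.40 and BUB1 at 0.35. Cholesterol synthesis genes had a median of 0.02, with INSIG1 at 0.50. Among noncoding RNAs, 8 of 15 snoRNA host genes were higher (median 0.09, with SNHG15 next after PVT1 at 0.58 and SNHG10 at -0.32), as were 8 of 9 nuclear long noncoding RNAs (median 0.09, with NEAT1 at 0.19). Of the neuronal markers 7 were compared and 5 were higher (median 0.37), with SNAP25 at 0.99 and NEFM at -0.37. SNAP25 passed the filter only through T275M, with 1.22 RPKM against 0.115 in GFP. The median of these markers was 0.09 with no filter on level and -0.18 with a minimum of 10 RPKM.

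**Figure D5:**
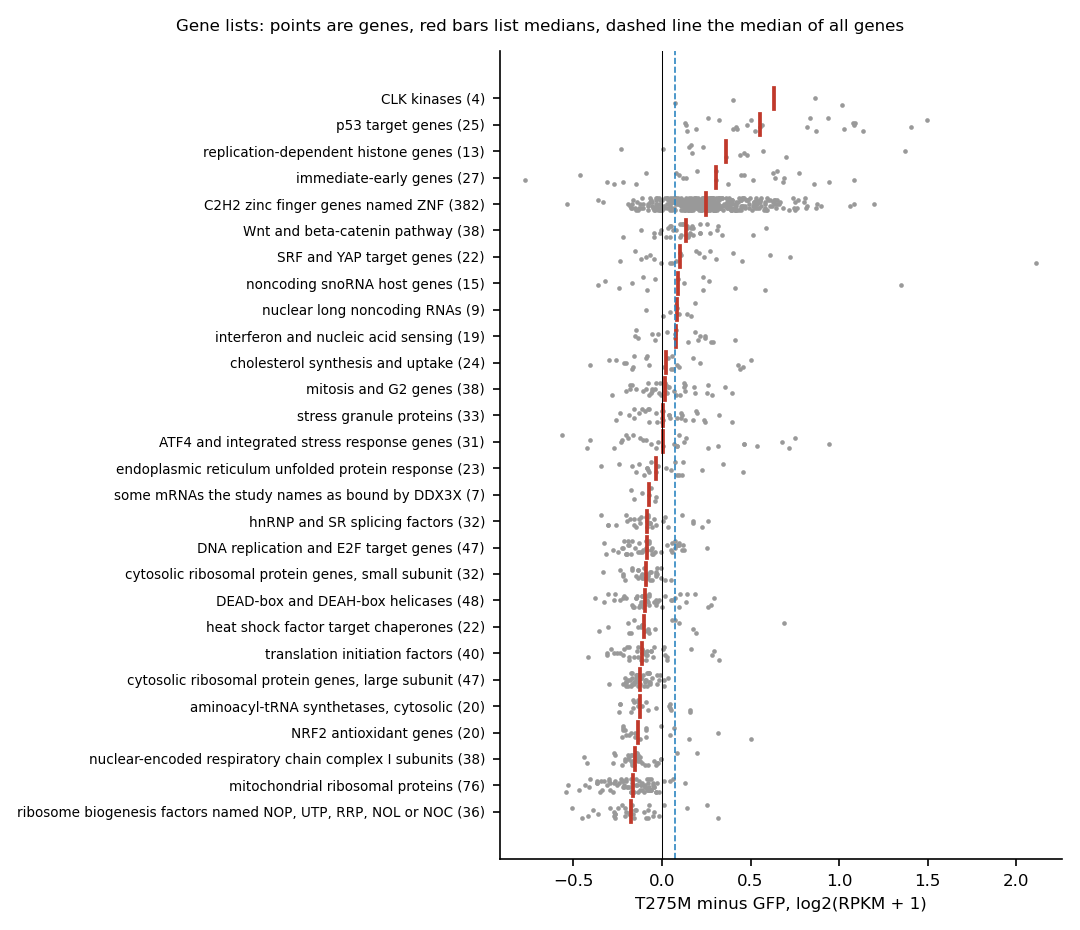
Each point is a gene, plotted by its difference of log2(RPKM + 1), T275M minus GFP, in rows of gene lists with the number of genes compared in brackets; red bars are list medians and the dashed line is the median of all genes at 0.07. The p53 list has its median at 0.55 with no point below 0, and ribosomal, mitochondrial and ribosome biogenesis lists have theirs between -0.18 and -0.09.

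Few genes separated T275M from wild type. Against GFP, wild type had 25 genes higher past 2-fold (0.2%) and G302V had 8 (0.0647%), in comparisons that share the GFP library with that of T275M. Directly between T275M and wild type, 1 gene was past 1.5-fold higher (0.00796%) and 10 were lower (0.0796%). TET1, an enzyme that oxidises 5-methylcytosine, was the higher one, at 2.81 RPKM with GFP, 2.9 with wild type, 4.91 with T275M, 5.78 with G302V, 3.87 with control siRNA and 6.28 with DDX3X siRNA, 0.60 above wild type (0.53 to 0.67). Of the 10 lower genes 5 were replication-dependent histone genes, HIST1H4H, HIST1H4J, HIST1H4K, HIST2H4B and HIST1H2BD. TERC, RPPH1 and SNAR-B1, also among the lower genes, are noncoding RNAs, and LOC644145 was another. HIST1H4H, HIST1H4J, HIST1H4K, RPPH1 and SNAR-B1 were under 1 RPKM with T275M and passed the filter only through wild type. In that order they rested on 14, 5, 6, 3 and 6 reads with T275M. With wild type they had 66, 29, 35, 24 and 31 reads. Histone messages, RPPH1 and SNAR RNAs are known to lack a poly(A) tail. How much of such RNA each library holds was not tested. CHAC1, a target of ATF4, was at 14.6 RPKM with wild type and 8.71 with T275M (-0.68, interval -0.81 to -0.55).

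Histone genes had a different order from the p53 list. HIST2H4B, a histone H4 gene with near-identical copies that these values do not separate, was at 2.58 RPKM with GFP, 16.3 with wild type, 8.28 with T275M, 3.0 with G302V, 2.73 with control siRNA and 2.16 with DDX3X siRNA. T275M lay 1.38 above GFP (1.13 to 1.62), and its difference from wild type was -0.90 (-1.07 to -0.72). Of 61 histone genes in the files 13 were compared, several of them near 1 RPKM, and 12 were higher with T275M than with GFP (median 0.36), and the median was 0.70 for wild type and -0.09 for G302V. The median against GFP was 0.11 with no filter on level and 0.10 with a pseudocount of 10, and HIST1H2BK was the single gene left with a minimum of 10 RPKM, at 0.15. In the direct comparison, 12 of the 13 were lower with T275M than with wild type (median -0.35). The counting interval lay below 0 for 8 of the 13, against 2573 of all 12503 genes.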

How the data were processed

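The deposited values are RPKM, which the authors computed per transcript row from BWA alignments (0.5.5, after cutadapt, hg19 per the labels) to the genome, RefSeq, exon junctions and AceView, with duplicate reads removed, while the methods call the normalisation FPKM. Each table holds 39618 rows. Each symbol was represented by its row of highest RPKM, averaged over the 6 libraries. Genes with 1 RPKM in either library and a row of 200 bases or longer were compared as log2(RPKM + 1), a pseudocount of 1. The filter left out 10236 symbols under 1 RPKM in both libraries and 465 with shorter rows, of which 12 were past 2-fold higher and 12 lower.

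The product of RPKM and row length was, within each library, a whole multiple of the value of 1 read (100% of the rows checked, within 0.1 read), which gave the reads and the depth. At the depth of T275M, 3 reads are 0.0631 per 1000000. Reads carry no molecular identifiers, so intervals cover counting error only. With 1 library per group no count model was fitted and no p is given.

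The members and the 28 gene lists were chosen with earlier results of these data known, and 4 lists defined by symbol were added after seeing the values. The genes named are DDX3X and DDX3Y, every gene past 2-fold, the 15 largest rises and 10 largest falls among genes of 5 RPKM or more, and up to 2 members of each list in each direction. Other genes named, including list members in between, the genes past 1.5-fold and those against wild type, were chosen after their values were seen. Coordinates and overlaps came from GENCODE on GRCh37, and promoters from RefSeq. Scripts in Python 3.11.15 (numpy 2.4.6, pandas 2.3.3, scipy 1.17.1) were tested on simulated reads. Some list members are not reported here.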

Additional observations from a re-analysis of the deposited data

How the results depend on the processing

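No paired analysis was possible because each group holds 1 library, and for the same reason no replicate could be left out. The count of genes past 2-fold depended on the treatment of low levels. Against 31 higher and 1 lower, a pseudocount of 0.1 gave 119 and 3, a pseudocount of 10 gave 2 and 0, a minimum of 10 RPKM gave 8 and 0, and a 1.5-fold threshold gave 271 and 5. CPM in place of RPKM gave 64 higher, the sum of the rows of a symbol gave 52 higher, rows of every length gave 43 higher and 13 lower, and removing a length fit, or a length and GC fit, left 0 lower. Removing the level trend gave 20 higher. The length and GC fit and the level trend were chosen after seeing the data. DDX3X and GADD45A were the 2 genes past 2-fold in every setting other than the thresholds. The DDX3X difference of 4.78 was 4.68 with a pseudocount of 10, 4.69 with median-ratio scaling, 4.80 with the total taken without DDX3X reads, 4.71 with the length fit, 4.68 with the length and GC fit and 5.00 with the level trend removed. The p53 median of 0.55 was 0.29 with a pseudocount of 10 and 0.47 with median-ratio scaling, which moves the median of all genes by 0.07. All 25 p53 genes (17 of 17 with a minimum of 10 RPKM) stayed higher in each setting, and 24 of 25 lay above the median of all genes with the length and GC fit or the level trend removed. With median-ratio scaling the medians of the ATF4, stress granule, mitosis and cholesterol lists turned from above to below 0, between -0.08 and -0.06. With the level trend removed, those of the tRNA synthetase, initiation factor, complex I, ribosomal protein, helicase, splicing factor, E2F, unfolded protein, heat shock, NRF2 and bound mRNA lists turned above 0, at no more than 0.13, and that of nuclear long noncoding RNAs turned to -0.03. With the length fit, the small ribosomal subunit turned to 0.04, stress granule proteins to -0.04 and cholesterol genes to -0.01, and with the length and GC fit, these 3 turned to 0.03, -0.06 and -0.0011, ATF4 targets to -0.03 and mitosis genes to -0.02. With a minimum of 10 RPKM, neuronal markers turned to -0.18 and epithelial and kidney markers to -0.10, and the latter also turned to -0.03 with median-ratio scaling and to -0.04 with the level trend removed. The cause of the other changes was not tested. Depth limits genes with few reads, such as FSBP and SNAR-B1.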
